A study of Mus musculus with 12 samples.

Results

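The 10 genes described here encode zinc-dependent histone deacetylases (Hdac1, Hdac2, Hdac3, Hdac4, Hdac5, Hdac6, Hdac7, Hdac8, Hdac10 and Hdac11). They were taken by gene symbol from the 18929 genes listed in either of 2 deposited count tables, and all 10 were listed in both tables. RNA was sequenced from 12 libraries of murine jejunal enteroids, which are epithelial organoids grown from intestinal crypts, after 5 days in ENR medium. Control enteroids carried the villin-Cre transgene, and the mutants carried the same transgene with a floxed Hdac1 or a floxed Hdac2 gene (HDAC1-/- and HDAC2-/- in the labels), with 4 libraries in each of the 3 groups. The villin promoter drives Cre in intestinal epithelium, and the mice had a mixed C57BL/6J, 129SV and CD1 background whose age and sex are not given in the sources used here.

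The methods describe crypts from 1 mouse per genotype, so genotype, mouse and enteroid line cannot be told apart and the p-values measure only the spread between libraries. The libraries held 20693200 to 30658628 counts on genes, and those of the same group differed beyond sampling noise, so each was used as 1 replicate. The 10 markers of epithelial identity were present in every group and summed to 7135.0 to 9321.0 CPM (counts per 1000000, with the library total scaled by its TMM factor). Markers of fibroblasts summed to at most 0.356 CPM in any library and those of endothelium to at most 0.508 CPM. The 6 immune markers summed to 2.06 to 2.68 CPM in control, 3.14 to 4.43 in Hdac1-deficient and 4.12 to 4.88 in Hdac2-deficient libraries, with Ptprc and Cd3e too low to be tested. Enterocyte markers were higher in both mutants, with 10 of 10 called (an adjusted p no larger than 0.05 from edgeR's test) and a summed level of 28060.0 to 32270.0 CPM in Hdac1-deficient, 22160.0 to 25460.0 CPM in Hdac2-deficient and 15730.0 to 17190.0 CPM in control libraries. Stem cell markers were lower, with 5 of 6 called in Hdac1-deficient and 6 of 6 in Hdac2-deficient enteroids. Of 8 proliferation markers, 6 were lower in each mutant, Pcna was higher in both (log2 fold changes 0.17 and 0.14) and Mki67 was not called, both named after their values were seen. Of 8 goblet cell markers, 3 were higher and 1 lower in Hdac1-deficient, and 6 were higher in Hdac2-deficient enteroids. Of 6 Paneth cell markers tested, 1 was higher and 1 lower in the former and 4 were higher in the latter, and of 6 enteroendocrine markers 5 were higher in the former and 4 higher and 1 lower in the latter. Of 4 tuft cell markers tested, 1 was higher in the Hdac1 mutant and 2 were lower in the Hdac2 mutant. Among all genes tested, 64.6% were called in the Hdac1 and 62.3% in the Hdac2 comparison. The part of this shift in cell type markers in the values below was not tested, and in bulk RNA fewer cells of a type and less RNA per cell cannot be told apart.

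Histone deacetylases remove acetyl groups from lysines of histones and other proteins, which usually lowers transcription of the chromatin they act on. HDAC1 and HDAC2 are close paralogs that sit together in the Sin3, NuRD and CoREST corepressor complexes, and loss of either paralog is known in other tissues to be buffered by the other. HDAC3 is the catalytic subunit of the NCoR/SMRT complexes, and HDAC8 is the remaining class I enzyme, known for deacetylating cohesin. Class IIa enzymes (HDAC4, HDAC5 and HDAC7) shuttle between nucleus and cytoplasm and bind MEF2 factors. Class IIb holds HDAC6, the tubulin deacetylase, and HDAC10, a polyamine deacetylase, and HDAC11 is the only class IV member. Hdac9, the remaining class IIa gene, was not listed in either table.

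Within control enteroids, Hdac3, Hdac2 and Hdac1 of class I were the most abundant of the family when counts were scaled per kilobase of exon. Hdac3 had 36.0 ± 0.617 CPM per kilobase (SD, n = 4), Hdac2 had 30.6 ± 0.981 and Hdac1 had 26.3 ± 0.833. Hdac11 followed at 18.3 ± 0.301, then Hdac5 at 7.99 ± 0.284, Hdac10 at 4.23 ± 0.279, Hdac6 at 3.42 ± 0.182 and Hdac7 at 3.02 ± 0.190 CPM per kilobase. Hdac4 and Hdac8, the remaining class I gene, were last, at 1.72 ± 0.116 and 1.72 ± 0.108 CPM per kilobase. These were the only neighbours in this order whose libraries overlapped, and every other pair of neighbours was apart in all 4 libraries. The lower part of the order depended on the length used. With the longest coding transcript of each gene in place of all annotated exons, an alternative chosen after seeing the data, Hdac3, Hdac2, Hdac1, Hdac11, Hdac5 and Hdac10 kept their places in control enteroids. Hdac7 (4.96 CPM per kilobase), Hdac6 (4.80) and Hdac8 (4.30) then overlapped with their neighbours, and Hdac4 was last at 3.36.

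Hdac1 (ENSMUSG00000028800) lies on the minus strand of chromosome 4 of GRCm38, from 129516104 to 129542713. Its level in control libraries was 94.4, 87.5, 89.6 and 90.5 CPM. In Hdac1-deficient libraries it was 3.37, 3.66, 5.09 and 4.80 CPM, from 90 to 155 counts. In Hdac2-deficient libraries it was 76.7, 77.0, 78.5 and 68.7 CPM. The 3 groups did not overlap. Hdac1 fell in Hdac1-deficient enteroids by 4.40 on the log2 scale (SE 0.076, adjusted p = 5.6e-19 from edgeR's quasi-likelihood test), which is 21.2-fold. It also fell in Hdac2-deficient enteroids, by 0.26 (SE 0.040, adjusted p = 1.1e-05), with a 95% interval of -0.34 to -0.17. Counts were made per gene and not per exon, so they do not show which exons the remaining reads covered.

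Hdac2 (ENSMUSG00000019777) lies on the plus strand of chromosome 10, from 36974544 to 37001889. It had 139.8, 135.1, 131.6 and 141.1 CPM in control libraries and 77.9, 78.8, 73.8 and 73.2 CPM in Hdac2-deficient libraries. In Hdac1-deficient libraries its level was 114.0, 114.3, 112.6 and 106.4 CPM. Again the 3 groups were apart, with the Hdac1-deficient libraries between the others. Hdac2 fell in Hdac2-deficient enteroids by 0.84 (SE 0.035, adjusted p = 1.7e-14), to 55.4% of the control mean. As for Hdac1, the exons covered by these reads are not shown by counts per gene. The counts on the 2 deleted genes were thus left at unequal levels, 4.67% of control for Hdac1 in its own mutant against 55.4% for Hdac2. In Hdac1-deficient enteroids Hdac2 fell by 0.28 (SE 0.036, adjusted p = 1e-06), to 81.7% of control. The paralog of the deleted gene was therefore lower, not higher, in each mutant, at 0.824-fold for Hdac2 and 0.837-fold for Hdac1. The 95% intervals of these folds, 0.783 to 0.868 and 0.790 to 0.887, lay below 1. Of all genes tested in the same comparisons, 46.1% and 45.5% changed at least as much in either direction.

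**Figure D1:**
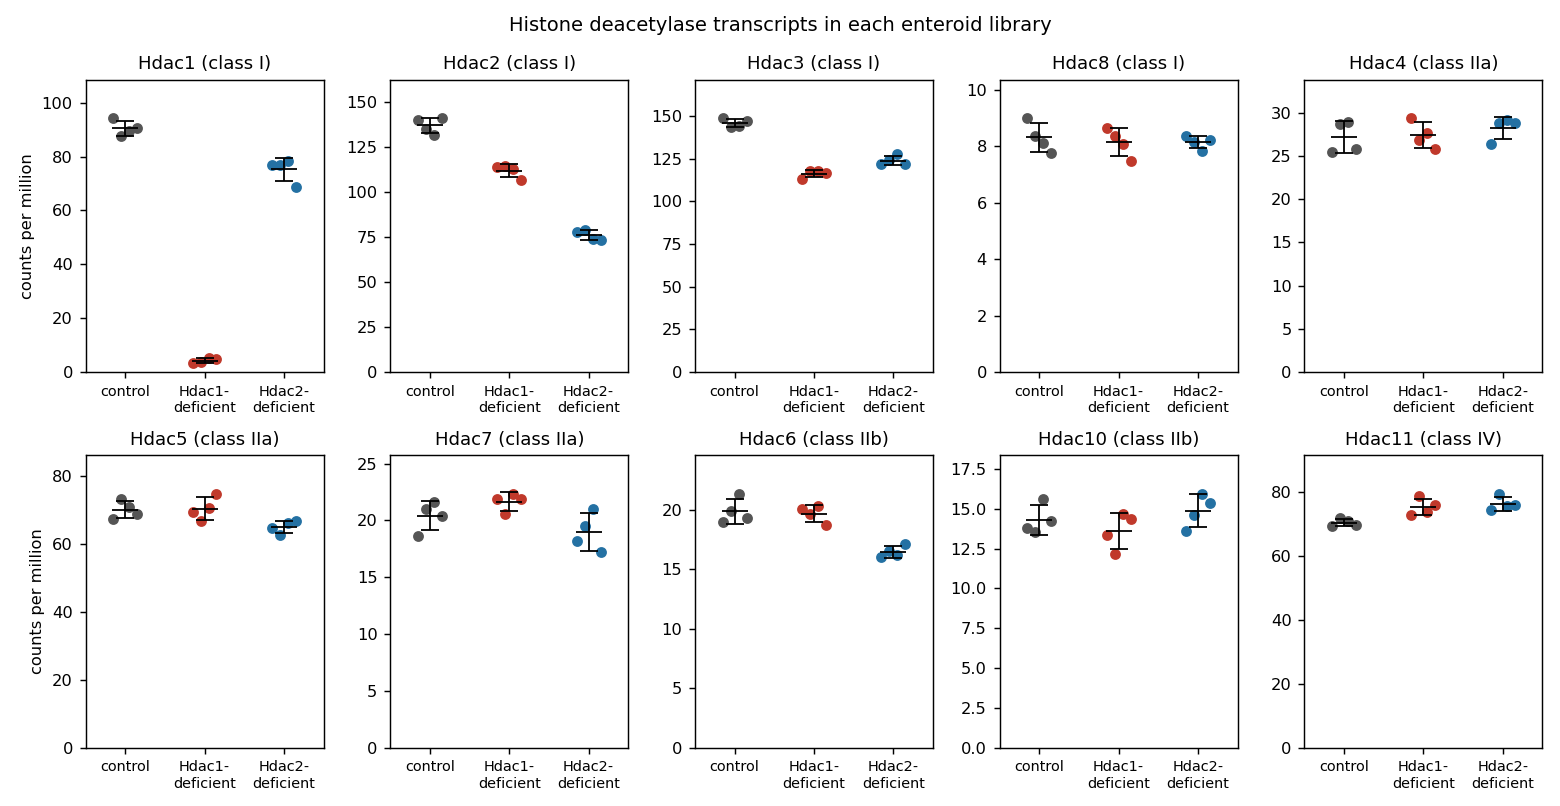
CPM (y axes, from 0) of the 10 histone deacetylase genes in every library, by group on the x axes. Points are the 4 libraries of a group, in the order of their replicate numbers, and bars show the mean ± SD. Hdac1 sits at 3.37 to 5.09 CPM in Hdac1-deficient libraries, Hdac2 keeps 73.2 to 78.8 CPM in Hdac2-deficient libraries, and Hdac3 lies below control in both mutants and Hdac6 in Hdac2-deficient libraries.

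The value for Hdac1 in Hdac2-deficient enteroids may depend on how reads matching a near-identical copy in the genome were assigned. Gm10093 (ENSMUSG00000061062) is annotated as a processed pseudogene on the plus strand of chromosome 17, from 78491582 to 78493025, and was listed in both tables. Its 1444 bases aligned with the Hdac1 transcript with 9 substitutions and were 99.4% identical, with an identical run of 450 bases. Of the 1939 windows of 100 bases, the read length, in the Hdac1 transcript, 905 (46.7%) occur unchanged in Gm10093. For Gm10093 the same 905 windows are 67.3% of its 1345. The reads were paired, so these windows of single reads do not give the share of read pairs matching both loci. Between Hdac1 and Hdac2 no window was shared, the longest common run was 17 bases, and the coding sequences were 74.4% identical. No pair of the 10 members shared a run longer than 36 bases.

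The stretch of Hdac1 in which Gm10093 differs most is shown for how few bases separate these loci, beside the many that separate Hdac1 from Hdac2. It is 120 bases of exon 5 of 14 of Hdac1 (chr4:129522975-129523094, minus strand), set beside the matching bases of Gm10093 (chr17:78491944-78492063, plus strand) and of exon 5 of 14 of Hdac2 (chr10:36989157-36989276, plus strand), all from GENCODE transcripts of GRCm38. Capitals mark, in the Hdac1 and Gm10093 lines, the bases at which those differ, and in the Hdac2 line the bases that differ from Hdac1.
Hdac1: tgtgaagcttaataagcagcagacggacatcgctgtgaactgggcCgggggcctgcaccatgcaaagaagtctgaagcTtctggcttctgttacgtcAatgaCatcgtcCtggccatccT
Gm10093: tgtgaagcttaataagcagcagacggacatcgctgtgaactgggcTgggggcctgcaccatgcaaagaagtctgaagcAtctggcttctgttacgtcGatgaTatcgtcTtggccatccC
Hdac2: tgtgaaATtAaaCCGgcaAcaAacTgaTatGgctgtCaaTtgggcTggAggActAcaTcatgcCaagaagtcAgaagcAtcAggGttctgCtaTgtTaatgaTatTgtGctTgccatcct
Hdac1 and Gm10093 differ here at 6 of 120 bases, which is 6 of their 9 differences over the whole alignment, and Hdac1 and Hdac2 at 30.

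Counts assigned to Gm10093 gave 8.24, 6.83, 8.72 and 8.19 CPM in control libraries and 15.2, 15.2, 14.2 and 14.4 CPM in Hdac2-deficient libraries. In Hdac1-deficient libraries they gave 1.09, 0.907, 0.657 and 0.618 CPM, from 17 to 29 counts. The copy was thus low where Hdac1 was low and high in Hdac2-deficient libraries, where Hdac1 itself was below control. Its log2 fold change was -3.28 (SE 0.15, adjusted p = 1.7e-13) in Hdac1-deficient and 0.89 (SE 0.074, adjusted p = 1.2e-09) in Hdac2-deficient enteroids, or 1.86-fold in the latter. Gm10093 took 8.11% ± 0.679 of the counts on both loci in control, 16.8% ± 6.44 in Hdac1-deficient libraries and 16.4% ± 0.810 in Hdac2-deficient libraries (SD, n = 4). Added together, Hdac1 and Gm10093 gave 98.5 ± 3.37 CPM in control and 90.0 ± 4.61 CPM in Hdac2-deficient libraries (SD, n = 4). For this sum, an alternative chosen after seeing the data, the log2 fold change in Hdac2-deficient enteroids was -0.12 (SE 0.038, adjusted p = 0.0095 from edgeR's quasi-likelihood test, 95% interval -0.20 to -0.04). That is less than the size for Hdac1 alone, with the same direction. In Hdac1-deficient enteroids the sum fell by 4.27. How reads that match both loci were assigned is not given in the sources used here, so counts from the copy and counts of Hdac1 reads placed on it cannot be told apart.

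**Figure D2:**
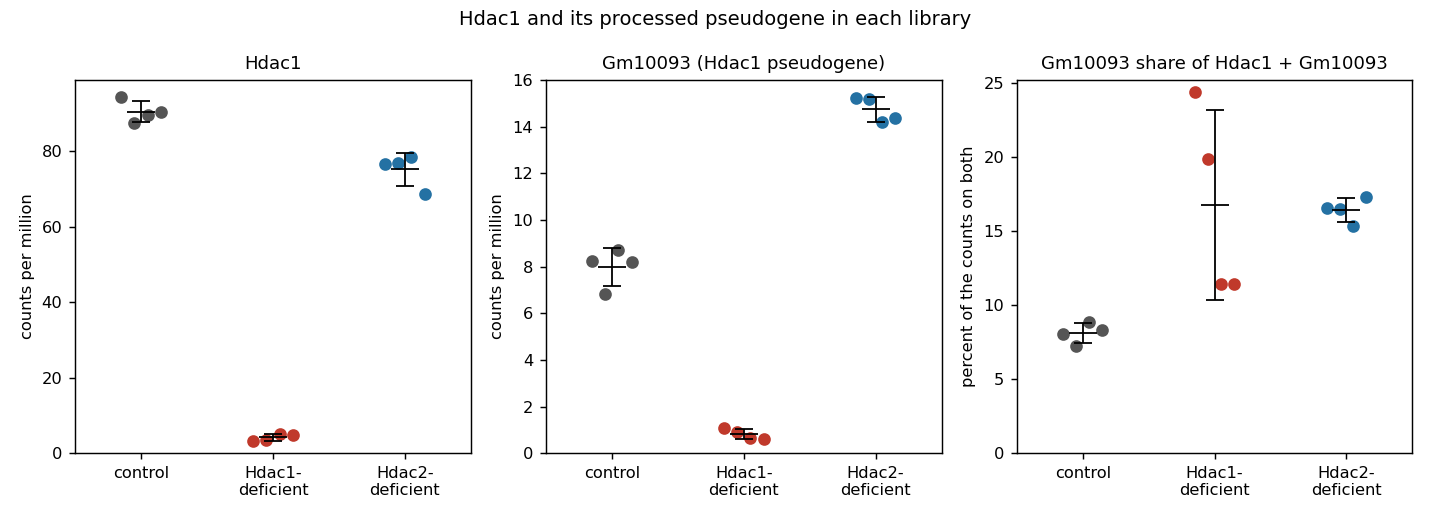
CPM of Hdac1 and of Gm10093, and the percentage of the counts on both loci that Gm10093 took (y axes, from 0), in the 4 libraries of each group. Points are libraries and bars the mean ± SD. Gm10093 lies at 14.2 to 15.2 CPM in Hdac2-deficient libraries against 6.83 to 8.72 CPM in control, while Hdac1 is below control there.

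Hdac3, on chromosome 18, encodes the enzyme of the NCoR/SMRT complexes and was lower in both mutants. It had 148.9, 143.6, 144.2 and 147.3 CPM in control libraries. Hdac1-deficient libraries had 113.3, 117.9, 117.5 and 116.4 CPM. Hdac2-deficient libraries had 121.6, 124.0, 127.7 and 122.1 CPM. Every mutant library was below every control library, and the mutants did not overlap either. Hdac3 fell by 0.32 (SE 0.031, adjusted p = 3e-08) in Hdac1-deficient and by 0.23 (SE 0.030, adjusted p = 9.3e-07) in Hdac2-deficient enteroids. Hdac8, the X-linked member of class I, had 7.77 to 9.01 CPM in control, 7.49 to 8.66 in Hdac1-deficient and 7.85 to 8.36 in Hdac2-deficient libraries. These ranges overlapped, with log2 fold changes of -0.02 in both mutants (SE 0.078 and 0.076, adjusted p = 0.83 for each). Its 95% intervals were -0.19 to 0.14 and -0.18 to 0.14, so changes of either sign within these intervals were not excluded.

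The class IIa genes differed little from control. Hdac4 had 25.5, 28.7, 28.9 and 25.8 CPM in control libraries, with log2 fold changes of 0.02 (95% interval -0.10 to 0.14) in Hdac1-deficient and 0.06 (-0.05 to 0.17) in Hdac2-deficient enteroids. Hdac7, known from endothelium and thymocytes, ranged from 18.7 to 21.6 CPM in control, 20.5 to 22.4 in Hdac1-deficient and 17.2 to 21.04 in Hdac2-deficient libraries. Its log2 fold changes were 0.10 (SE 0.056, adjusted p = 0.14) and -0.10 (SE 0.065, adjusted p = 0.19). Hdac5 had 67.5, 73.2, 70.8 and 68.9 CPM in control and 64.9, 62.8, 66.2 and 66.7 CPM in Hdac2-deficient libraries. Those groups were just apart, and Hdac5 fell by 0.10 (SE 0.038, adjusted p = 0.03) in Hdac2-deficient enteroids. This call was lost without control replicate 2 (adjusted p = 0.11) or 3 (0.055) and without Hdac2-deficient replicate 1 (0.062) or 2 (0.10), and with DESeq2 (0.055). In Hdac1-deficient enteroids the log2 fold change of Hdac5 was 0.02 (SE 0.042, adjusted p = 0.73).

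Hdac6, which encodes the cytoplasmic deacetylase of tubulin and lies on the X chromosome, was called lower than control in Hdac2-deficient enteroids, and the mutants differed in the direct comparison given below. It had 19.0, 19.9, 21.4 and 19.3 CPM in control libraries and 20.1, 19.7, 20.3 and 18.7 CPM in Hdac1-deficient libraries. Hdac2-deficient libraries had 16.02, 16.6, 16.2 and 17.1 CPM, below every other library. Hdac6 fell by 0.27 (SE 0.057, adjusted p = 0.00038) in Hdac2-deficient enteroids, and its log2 fold change in Hdac1-deficient enteroids was -0.005 (SE 0.056, adjusted p = 0.95). Hdac10 ranged from 13.5 to 15.6 CPM in control, 12.2 to 14.7 in Hdac1-deficient and 13.6 to 15.95 in Hdac2-deficient libraries, and its log2 fold changes were -0.06 and 0.06 (SE 0.071 and 0.067, adjusted p = 0.49 and 0.43).

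Hdac11 was the only member called higher than control, and by a small amount. Its level was 69.6, 71.9, 71.1 and 69.6 CPM in control libraries. In Hdac1-deficient libraries it was 72.8, 78.7, 73.9 and 76.2 CPM, and in Hdac2-deficient libraries 74.4, 79.6, 75.6 and 76.2 CPM. All 8 mutant libraries were above the 4 control libraries, and the mutants overlapped each other. Hdac11 rose by 0.11 (SE 0.037, adjusted p = 0.016) in Hdac1-deficient enteroids and by 0.13 (SE 0.035, adjusted p = 0.004) in Hdac2-deficient enteroids, or 1.08-fold and 1.09-fold. The call in Hdac1-deficient enteroids was lost without control replicate 4 (adjusted p = 0.053) or Hdac1-deficient replicate 2 (0.069). Antisense genes overlap 17.9% of the exon bases of Hdac11 (Gm14573 and Gm44002) and 22.4% of those of Hdac4 (Gm26720). The library kit keeps strand, but whether counting used it is not given in the sources used here, so these values are uncertain.

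In all, 4 of the 10 members were called in Hdac1-deficient enteroids (1 higher, 3 lower), while 64.6% of the 14246 genes tested there were called (32.7% higher, 31.9% lower). In Hdac2-deficient enteroids 6 of 10 were called (1 higher, 5 lower), against 62.3% of 14007 genes (31.4% higher, 30.9% lower). The groups did not overlap for 4 members in the Hdac1 comparison, against 58.5% of all genes, and for 6 in the Hdac2 comparison, against 56.1%. Each of these member counts includes the deleted gene of its comparison. The shares of members called were thus below or near those of all genes. The median size of the log2 fold change was also smaller for the members, at 0.08 against 0.25 for all genes in the Hdac1 comparison and at 0.11 against 0.23 in the Hdac2 comparison. All genes tested were used for this, without matching them to the members by expression level. With a 2-fold limit, 1 member was called in Hdac1-deficient enteroids (Hdac1 itself, against 10.6% of all genes). In Hdac2-deficient enteroids no member passed that limit (8.3% of all genes did), since Hdac2 itself fell 1.79-fold, and no member passed it with DESeq2 or at an unadjusted p. Apart from Hdac1 and Gm10093, the highest upper bound of a 95% interval was 1.16-fold in Hdac1-deficient (Hdac7) and 1.15-fold in Hdac2-deficient enteroids (Hdac10). Increases of a family member beyond these sizes were outside the intervals. Tested against a 1.2-fold change in place of no change, Hdac1 and Hdac3 were called in Hdac1-deficient enteroids and Hdac2 alone in Hdac2-deficient enteroids. The 2 comparisons share their control libraries and are not independent of each other.

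**Figure D3:**
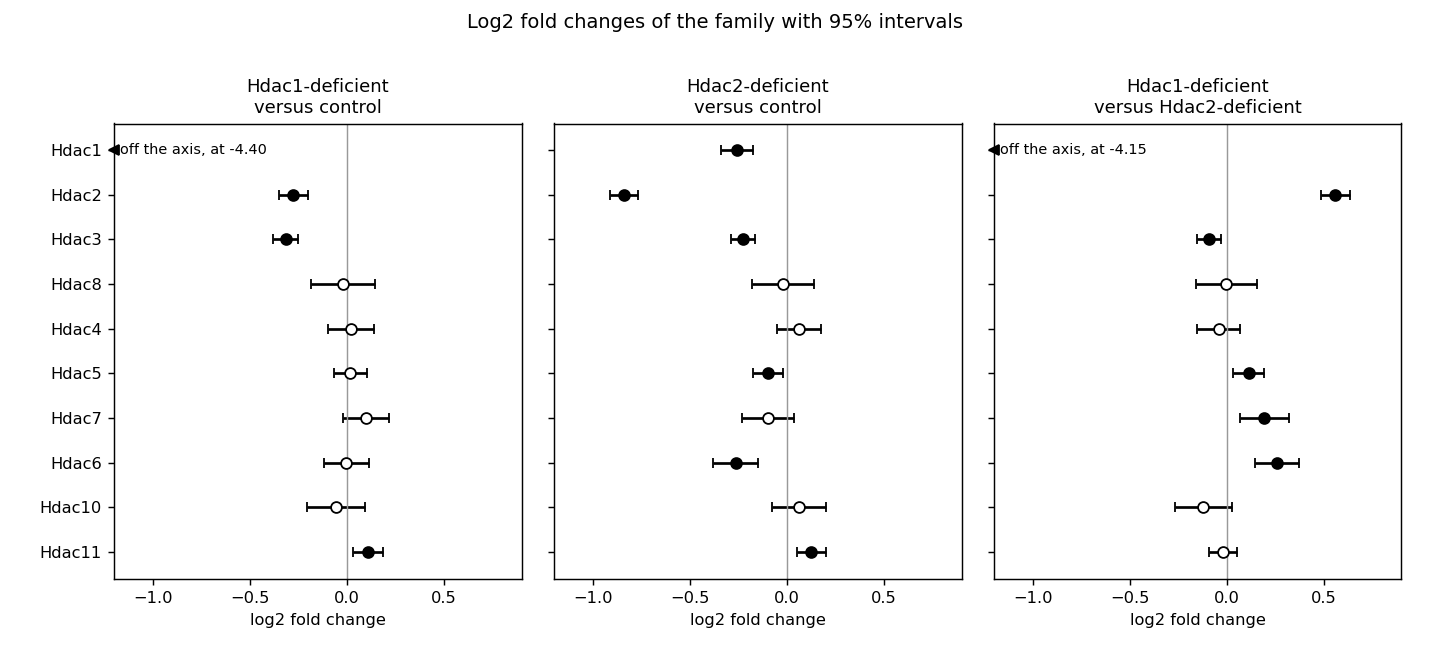
Log2 fold changes (x axes) of the 10 genes in the 3 comparisons, with 95% intervals from edgeR's fits. Filled points have an adjusted p of at most 0.05 and open points do not, and triangles mark Hdac1 beyond the axis, at -4.40 and -4.15. Hdac2 lies at -0.28 in Hdac1-deficient and at -0.84 in Hdac2-deficient enteroids, and no interval against control reaches above 0.22.

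**Figure D4:**
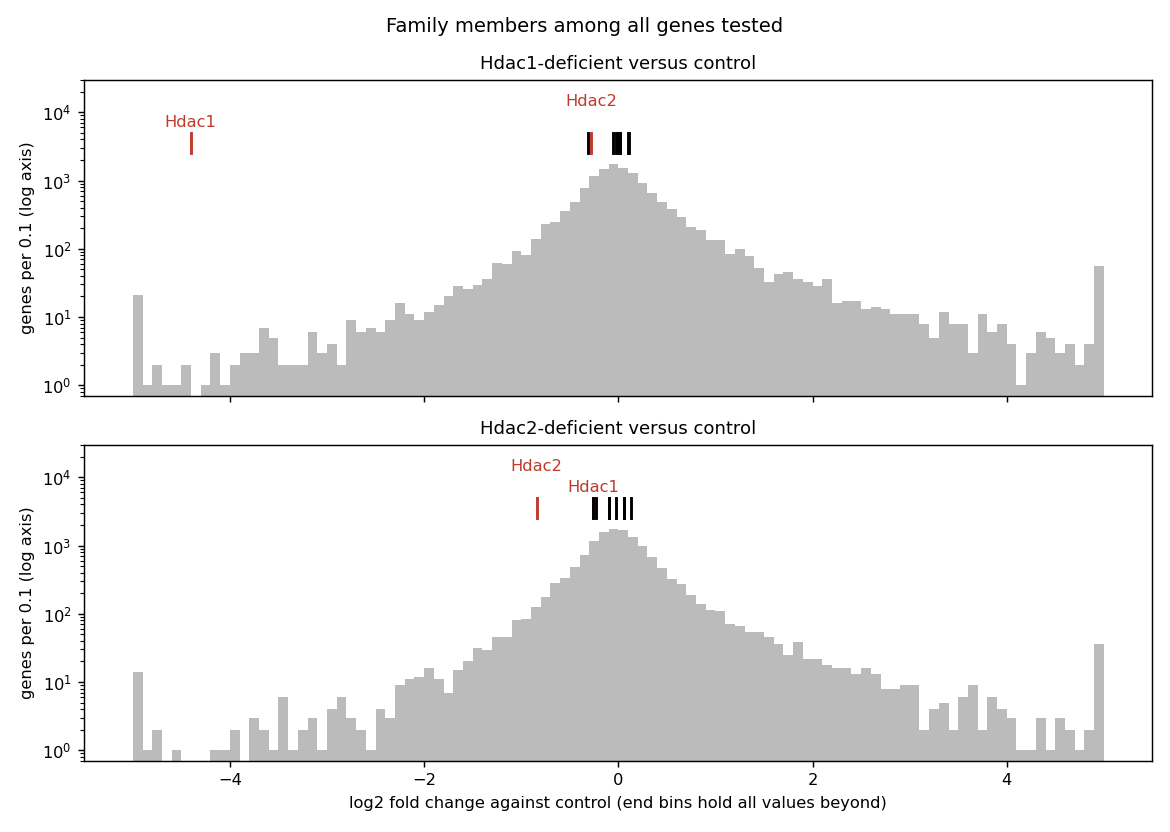
Number of genes (y axes, log scale) by log2 fold change against control in steps of 0.1 (x axis), with the 10 members as vertical marks above, Hdac1 and Hdac2 in red. Except for Hdac1 in Hdac1-deficient enteroids at -4.40 and Hdac2 in Hdac2-deficient enteroids at -0.84, the marks lie between -0.32 and 0.13, in the middle of the distribution of all genes.

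Whether the mutants differed from each other was tested directly in a fit of all 12 libraries. Of the 10 members, 4 were called higher in Hdac1-deficient enteroids and 2 lower, against 45.9% of the 14510 genes tested (22.3% higher, 23.7% lower), and 5 had groups that did not overlap, against 41.8% of all genes. Hdac1 was lower (-4.15, SE 0.077, adjusted p = 1.4e-20) and Hdac2 higher (0.56, SE 0.036, adjusted p = 9.8e-13) in the Hdac1-deficient libraries than in the Hdac2-deficient ones. Hdac1 passed the 2-fold limit (5.62% of all genes). Hdac6 was higher by 0.26 (SE 0.056, adjusted p = 0.00042), with a 95% interval of 0.14 to 0.37. Hdac7 was higher by 0.19 (SE 0.061, adjusted p = 0.012) and Hdac5 by 0.11 (SE 0.039, adjusted p = 0.022). Hdac3 differed by -0.09 (SE 0.030, adjusted p = 0.016). The Hdac7 libraries overlapped, and its call was lost without Hdac2-deficient replicate 4 (adjusted p = 0.063). The call of Hdac5 was lost without Hdac1-deficient replicate 4 (0.095) or Hdac2-deficient replicate 2 (0.084). That of Hdac3 was lost without Hdac1-deficient replicate 1 (0.059) or Hdac2-deficient replicate 3 (0.065), and with library size alone as the scaling (0.098). For Hdac4, Hdac8, Hdac10 and Hdac11 the differences were -0.04, -0.003, -0.12 and -0.02. Their 95% intervals were -0.15 to 0.07, -0.16 to 0.15, -0.27 to 0.02 and -0.09 to 0.05.

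The summed transcripts of the family were lower in both mutants, which is given as a description without a test. Hdac1 and Hdac2 together had 221.2 to 234.2 CPM in control, 111.2 to 118.0 in Hdac1-deficient and 141.9 to 155.8 in Hdac2-deficient libraries. Their mean was 51.1% of the control mean in Hdac1-deficient and 66.5% of it in Hdac2-deficient libraries. Within this pair, Hdac1 gave 39.8% ± 0.711 of the counts in control, 3.65% ± 0.775 in Hdac1-deficient libraries and 49.8% ± 1.30 in Hdac2-deficient libraries (SD, n = 4). The counts of the pair were thus near balance in Hdac2-deficient enteroids, where the exons they cover are not known, and nearly all on Hdac2 in Hdac1-deficient enteroids.

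Scaled by exon length, class I had 94.6 ± 2.26 CPM per kilobase in control, 56.6 ± 0.937 in Hdac1-deficient libraries and 71.0 ± 1.99 in Hdac2-deficient libraries (SD, n = 4). Class IIa had 12.7, 12.96 and 12.02 CPM per kilobase, class IIb 7.65, 7.42 and 7.23, and class IV 18.3, 19.6 and 19.9, in the same order of groups. Class I held most of the difference in the family sum between groups and made up 71.0% of that sum in control, 58.6% in Hdac1-deficient libraries and 64.5% in Hdac2-deficient libraries. In CPM, the difference from control of Hdac11, the member called higher, was 4.84 in the Hdac1 mutant and 5.91 in the Hdac2 mutant. The difference of Hdac1 and Hdac2 together was -111.3 and -76.3 CPM. In Hdac1-deficient enteroids the order per kilobase became Hdac3 (28.7), Hdac2, Hdac11, Hdac5 and so on, with Hdac1 last at 1.23. In Hdac2-deficient enteroids Hdac3 (30.6) was followed by Hdac1 (21.8) and Hdac11 (19.9), whose libraries overlapped, and by Hdac2 (17.0). With the length of the longest coding transcript, Hdac2 (37.9) and Hdac1 (36.9) overlapped there and lay above Hdac11 (28.8).

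**Figure D5:**
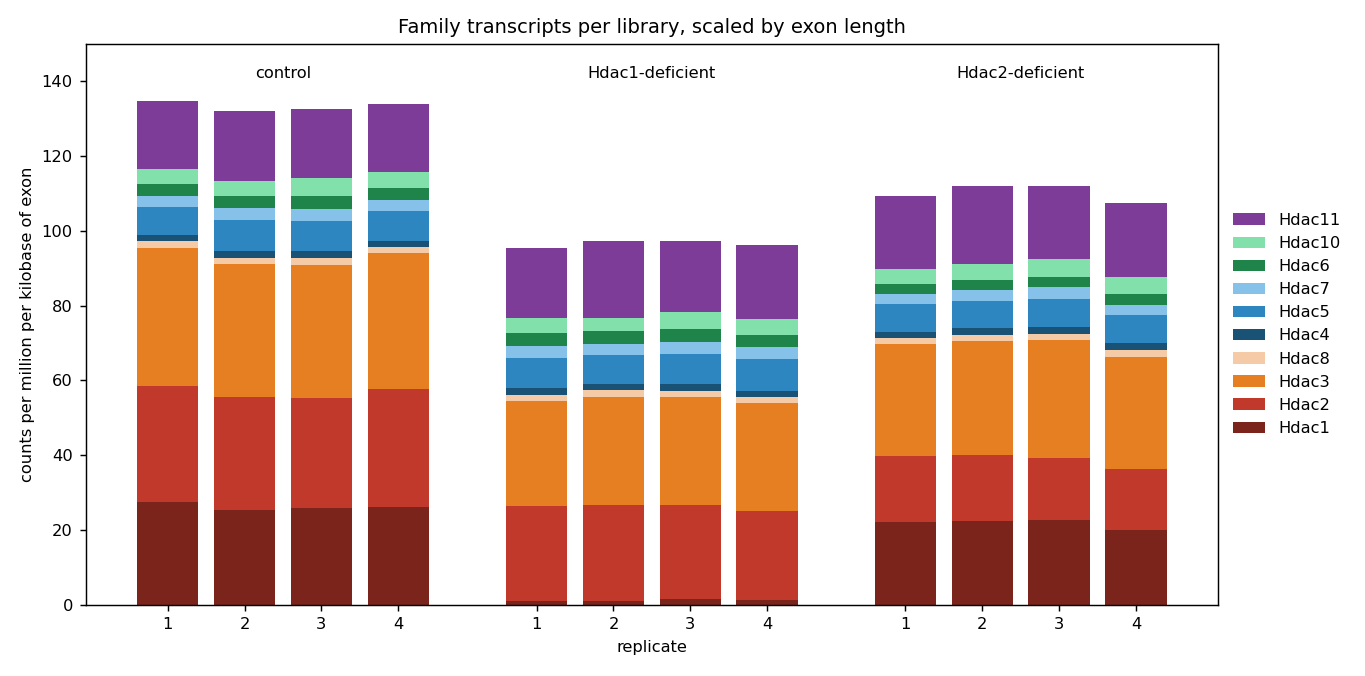
CPM per kilobase of exon (y axis) of the 10 members, stacked in each of the 12 libraries (x axis, replicate numbers within groups). The stacks reach 132.1 to 134.7 in control, 95.5 to 97.4 in Hdac1-deficient and 107.4 to 112.1 in Hdac2-deficient libraries, and the segments of Hdac1, Hdac2 and Hdac3 hold most of the difference.

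Hdac6 and Hdac8 lie on the X chromosome, and some X-linked transcripts differed between the control and mutant libraries. Xist, the RNA that coats the inactive X chromosome, had 1.41 to 1.72 CPM in control, 775.7 to 1078.0 in Hdac1-deficient and 494.3 to 676.9 in Hdac2-deficient libraries. Kdm5c, Kdm6a, Eif2s3x and Ddx3x, which escape X inactivation, were all called higher in both mutants, while Ddx3y, Uty, Kdm5d and Eif2s3y of the Y chromosome were not listed in either table. The median log2 fold change of the X-linked protein-coding genes was -0.03 for the Hdac1 mutant and -0.04 for the Hdac2 mutant, against 0.001 and 0.01 on the autosomes. Of these X-linked genes, 28.45% and 28.06% were called higher in the Hdac1 and Hdac2 mutants, against 34.28% and 34.06% on the autosomes. Called lower were 33.7% and 32.22% of them, against 33.02% and 31.72% on the autosomes. Any part of these X-linked differences in the Hdac6 value was not tested. They cannot be told apart from genotype, mouse or enteroid line.

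The genes that flank the deleted loci were read for the same comparisons. Next to Hdac1, Marcksl1 lies 119 bp away and had log2 fold changes of 0.02 (adjusted p = 0.77) in Hdac1-deficient and -0.23 (adjusted p = 0.00076) in Hdac2-deficient enteroids. Lck, 5631 bp away on the other side, fell in both, by 1.03 and 1.11, and Bsdc1 rose in both, by 0.45 and 0.41. Eif3i fell by 0.19 and 0.18. Around Hdac2 the nearest tested protein-coding genes are farther off, with Amd2, Tube1 and Frk at 1262652, 2132087 and 2363266 bp. Marcks, at 131486 bp, fell by 0.32 in Hdac1-deficient and by 0.22 in Hdac2-deficient enteroids, and Tube1 fell by 0.43 and 0.38. Amd2 fell by 1.08 in Hdac1-deficient enteroids (adjusted p = 1.1e-06) with -0.04 (adjusted p = 0.80) in Hdac2-deficient enteroids, and Frk rose by 0.11 and 0.32. Each flanking gene other than Marcksl1 and Amd2 was called with 1 sign in both comparisons. Among all genes tested, 64.6% were called in the Hdac1 and 62.3% in the Hdac2 comparison, and the comparisons share their control libraries. The share of all genes called with 1 sign in both was not computed. Any local effect of the deletions on these genes was not tested.

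Partners of the class I enzymes moved in both directions. Of the subunits of the Sin3, NuRD, CoREST, MIER, MiDAC and NCoR/SMRT complexes, 15 of 40 tested were higher and 13 lower in Hdac1-deficient enteroids. Their median log2 fold change was 0.03, against -0.004 for all genes. In Hdac2-deficient enteroids 9 of 41 were higher and 16 lower, with a median of -0.06 against -0.004. The shares called, 70.0% and 61.0%, were near the 64.6% and 62.3% of all genes. Rcor2, a CoREST subunit, had 58.96 ± 1.46 CPM in control, 33.4 ± 1.23 in Hdac1-deficient libraries and 28.9 ± 2.23 in Hdac2-deficient libraries (SD, n = 4). It fell by 0.81 (SE 0.041) and 1.02 (SE 0.047) and was the only subunit past 2-fold against control. Named after their values were seen, the NuRD subunit gene Mta2 fell by 0.62 and 0.70, from 285.5 CPM in control, and Chd3, a NuRD remodeller, rose by 0.82 and 0.77, from 51.3 CPM.

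Other lists around lysine acetylation held no gene past 2-fold against control, and their shares called are given beside 64.6% of all genes in the Hdac1 and 62.3% in the Hdac2 comparison. Among the 7 sirtuins, the NAD-dependent deacetylases, 3 were called higher in the Hdac1 mutant and 2 in the Hdac2 mutant, which is 42.9% and 28.6% of the list, with medians of 0.07 in both. Sirt7, a nucleolar sirtuin, had means of 54.6 CPM for control, 70.4 for Hdac1-deficient and 68.6 for Hdac2-deficient libraries and rose by 0.38 (SE 0.052) and 0.34 (SE 0.038). Sirt3, the mitochondrial sirtuin, rose by 0.24 and 0.23. Of 14 lysine acetyltransferase genes, 6 were higher and 4 lower in Hdac1-deficient and 7 and 4 in Hdac2-deficient enteroids (71.4% and 78.6% called). Kat5, the catalytic subunit of the TIP60 complex, fell from 51.6 CPM in control by 0.58 (SE 0.044) and 0.60 (SE 0.041). Ep300, the p300 acetyltransferase, rose by 0.35 in Hdac2-deficient enteroids, and its value in Hdac1-deficient enteroids was 0.07 (adjusted p = 0.27).

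Among the 15 tested partners of class IIa enzymes (MEF2 factors, 14-3-3 proteins and kinases), 6 were higher and 2 lower in Hdac1-deficient, and 6 and 5 in Hdac2-deficient enteroids (53.3% and 73.3% called, against 64.6% and 62.3% of all genes). The salt-inducible kinase gene Sik1 rose by 0.23 and 0.32, and Ywhae, a 14-3-3 gene, fell by 0.28 and 0.26. Of 11 bromodomain reader genes 2 were higher and 5 lower in each mutant, or 63.6% called. Brd9, a BAF complex subunit, rose by 0.36 and 0.12 in the Hdac1 and Hdac2 mutants, and Baz2b by 0.25 and 0.19. The medians of these lists lay between -0.002 and 0.08, against -0.004 for all genes.

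Over the 12 libraries, the genes whose log2 CPM were most like that of Hdac1 were Aldoc (Pearson's r = 0.998 among 14509 genes) and Gm9855 (0.996), and for Hdac2 they were Mboat2 (0.993) and Gm7993 (0.988). Hdac3 was closest to Coro1b and Plgrkt (0.99 each), Hdac6 to Ehmt2 (0.974) and Fam65b (0.959), and Hdac5 to Chka (0.933) and D11Wsu47e (0.918). Hdac10 was closest to A430105I19Rik (0.938) and Trp53i13 (0.87), Hdac11 to Rnf39 and Arid5a (0.924 each), and Hdac7 to Spice1 (0.924) and Brat1 (0.917). Among the genes closest to Hdac4 was Eif4ebp2 (0.858), and Hdac8 was closest to Tamm41 (0.842) and Vps25 (0.807). Aldoc went from 168.9 CPM in control to 95.01 and 166.8 CPM in the Hdac1 and Hdac2 mutants, and Mboat2 from 62.7 to 22.3 and 2.16 CPM. These correlations describe libraries that fall into 3 groups and share those group differences.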

How the data were processed

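The authors aligned paired reads of 100 bases to GRCm38 with STAR (2.4.0f1 per the processing notes) and deposited 1 table per mutant with the same 4 control libraries. The deposited counts are whole reads per gene, unnormalized, and list genes whose counts sum to 10 or more. The counting program and its strand setting are not given in the sources used here. A deposited normalized score and the authors' own fold changes, log2 CPM and p-values were not used. Libraries were grouped by their labels.

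Fold changes were tested with edgeR 4.0.16 in R 4.3.3 (TMM, filterByExpr, robust quasi-likelihood F test), over each whole table for the comparisons with control and over all 12 libraries for genes in both tables for the mutants. P-values were adjusted by Benjamini-Hochberg over all genes tested, called genes have an adjusted p no larger than 0.05, and SE is the log2 fold change divided by the square root of F. Intervals are unadjusted. DESeq2 1.42.0, other scalings and filters, a replicate block and leaving out each library were alternatives. Exon lengths, neighbours and sequences came from GENCODE M21 (GRCm38), which matched 99.4% of listed genes. Named were all family members, genes of the pathway lists past 2-fold against control or, with none, the 2 with the largest change, the 2 genes most like each member, and the 2 nearest tested protein-coding genes on each side of Hdac1 and Hdac2. Items withheld from this text are not reported here. The script was tested on simulated data. The members and lists were chosen with earlier results of these data known.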

Additional observations from a re-analysis of the deposited data

Results flagged for a closer look

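Hdac4 in Hdac2-deficient libraries held 1 library apart from the others, replicate 1 at 26.4 CPM against 28.8 to 29.1 CPM, with a gap of 0.873 of the group's range. It was the only such group among 33 groups examined, and chance alone sets apart about 1 group in 20.

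The 2 mutants differed in the direct comparison, Hdac1-deficient against Hdac2-deficient, for 6 members and for the Hdac1 pseudogene. Of the 14510 genes tested there, 45.9% were called. The log2 differences were -4.15 for Hdac1 and 0.56 for Hdac2, the deleted genes. Hdac6 differed by 0.26, Hdac7 by 0.19, Hdac5 by 0.11 and Hdac3 by -0.09. The calls of Hdac7, Hdac5 and Hdac3 were each lost when certain single libraries were left out. Gm10093 differed by -4.17 (adjusted p = 8.4e-20 from edgeR's test).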

How the results depend on the processing

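The number of members called stayed within 1.5 times its value under every alternative but the test against a 1.2-fold change, which called 2 members in the Hdac1 comparison, 1 in the Hdac2 comparison and 2 between the mutants. That test asks for more than a difference from 0 and uses the same fold changes. Leaving out each library gave 3 to 4, 5 to 7 and 5 to 6 members called. Hdac7 was called lower in Hdac2-deficient enteroids without control replicate 1 (-0.15, adjusted p = 0.042 from edgeR's test). With a replicate block, 4, 6 and 6 members were called and no member's call changed. Same-numbered libraries deviated together with correlations of -0.045 to 0.091, so the numbers did not pair the libraries, and the block moved the genes called to 8923, 8891 and 6706.

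Signs turned only for values near 0 that were not called. Between the mutants, Hdac8 was 0.025 and Hdac11 0.008 with library size alone, and Hdac8 was 0.005 with a minimum mean of 10 counts. Leaving out each library gave log2 fold changes against control of -0.015 to 0.05 (Hdac4), -0.012 to 0.042 (Hdac5), -0.031 to 0.031 (Hdac6) and -0.053 to 0.017 (Hdac8) in Hdac1-deficient and -0.058 to 0.017 (Hdac8) in Hdac2-deficient enteroids. Between the mutants it gave -0.031 to 0.035 (Hdac8) and -0.034 to 0.001 (Hdac11). Depth limits Hdac8 most, with 162 to 269 counts per library.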
